A study of Mus musculus with 6 samples.

Results

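The genes described here encode the nuclear part of the mitochondrial respiratory chain and the ATP synthase. They were taken by symbol from the count tables of 6 cultures: all names starting with Nduf, Uqcr, Cox4, Cox5, Cox6, Cox7, Cox8 or Atp5, plus Sdha, Sdhb, Sdhc, Sdhd and Cyc1, without pseudogenes and antisense names. The choice gave 93 of 24391 gene rows: 36 subunits of complex I, 4 of complex II, 9 of complex III, 19 of complex IV, 15 of complex V, 7 Ndufaf assembly factors of complex I and 3 further factors. No row held a mitochondrially encoded gene. Of the 93 genes, 87 had enough counts to be tested.

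All cultures were GT1-7 cells, an immortalised mouse hypothalamic line that resembles neurons making gonadotropin-releasing hormone (GnRH). Every culture was kept without serum for 12 h. The 3 AVP cultures then were given arginine vasopressin (AVP), a hypothalamic peptide hormone, at a dose of 200 pg/mL over 6 h, and the 3 controls received vehicle, although another label calls them untreated. The labels name each group's cultures biological replicates of 1 line in a single batch, and the comparison asks which transcripts differ after AVP.

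Electrons from NADH enter the chain at complex I and those from succinate at complex II. They pass through ubiquinone to complex III, through cytochrome c to complex IV and from there to oxygen, while complexes I, III and IV move protons across the inner membrane. The ATP synthase, complex V, lets the protons return and makes ATP. Most subunits are encoded in the nucleus, some as tissue-specific isoforms, and neurons depend heavily on this pathway for their ATP.

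Total counts were 34908867 to 36826004 in the control libraries and 35597040 to 37418318 in the AVP libraries. The 93 genes took 1.33%, 1.35% and 1.23% of all counts in the controls, and the shares with AVP were 1.31%, 1.203% and 1.26% (values here and below in the order of the replicates). These shares overlapped between the groups, with control replicate 3 and AVP replicate 2 the lowest of their groups. The 95% exact binomial intervals were within 0.01 percentage points of each share and cover counting error only. Genes with less than 1000 nt of annotated exon took 2.58%, 2.70% and 2.28% of counts in the controls and 2.39%, 2.16% and 2.41% with AVP, with the same libraries lowest in each group. The gene Rn45s took 0.995% of counts in control replicate 1 and from 0.139% to 0.245% in the other libraries. Of 12 neuronal and neuroendocrine markers, 11 had counts in every library, and Stmn2 had 1 count in all. Their summed level was 3230 to 3413 CPM in the controls and 3120 to 3247 CPM with AVP, where CPM of markers are counts scaled to the library's total and those of all other genes use TMM-adjusted totals. Markers of this list differed in direction, with mean levels from 959 to 731 CPM for Syp and from 176 to 258 CPM for Tubb3. Gnrh1, the gene of GnRH, had only 11 to 26 counts per library. Markers of other cell types were near 0 (microglia, fibroblast) or low (astrocyte, 1.03 to 2.33 CPM), apart from Mbp in the oligodendrocyte list and Kdr in the endothelial list. Those 2 lists had summed levels of 47.3 to 52.5 and 297 to 329 CPM in the controls, and 17.3 to 19.3 and 248 to 279 CPM with AVP, while Mog and Olig2 were at 0. Their part in the results below was not tested.

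Most respiratory chain and ATP synthase genes differed little between AVP and control cultures, and those that passed the test were mainly lower with AVP. With each library's exon length trend removed, as described below, nearly as many passed as higher as passed as lower. The largest changes among genes that passed were falls of Cox6a2, Cox7a2l, Uqcrq and Atp5g1, genes of complex IV, a supercomplex factor, complex III and complex V. Of the 87 genes tested, 9 rose, 27 fell and 51 did not pass an adjusted p of 0.05 (edgeR quasi-likelihood test, Benjamini-Hochberg adjustment over all genes). Leaving out AVP replicate 2 or control replicate 2 left 16 and 17 falls, and leaving out AVP replicate 1 or control replicate 3 left 5 and 6 rises. The share called was 41.4%, with 10.3% higher and 31.0% lower. Over all 14163 genes tested it was 57.5%, with 28.7% higher and 28.8% lower. The share that fell was thus near that of all genes, and the share that rose was below it. The median log2 fold change (AVP minus control) was -0.10 for these genes and 0.01 for all genes, and the median size without its sign was 0.17 and 0.32. Cox6a2 was the single gene that passed with a change of at least 2-fold, 1.15% of the 87, against 10.0% of all genes. The 3 values of each group did not overlap for 32 of these genes (36.8%), where 63.4% of all genes had no overlap. In bulk RNA, fewer cells of a type and less RNA per cell cannot be told apart.

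**Figure D1:**
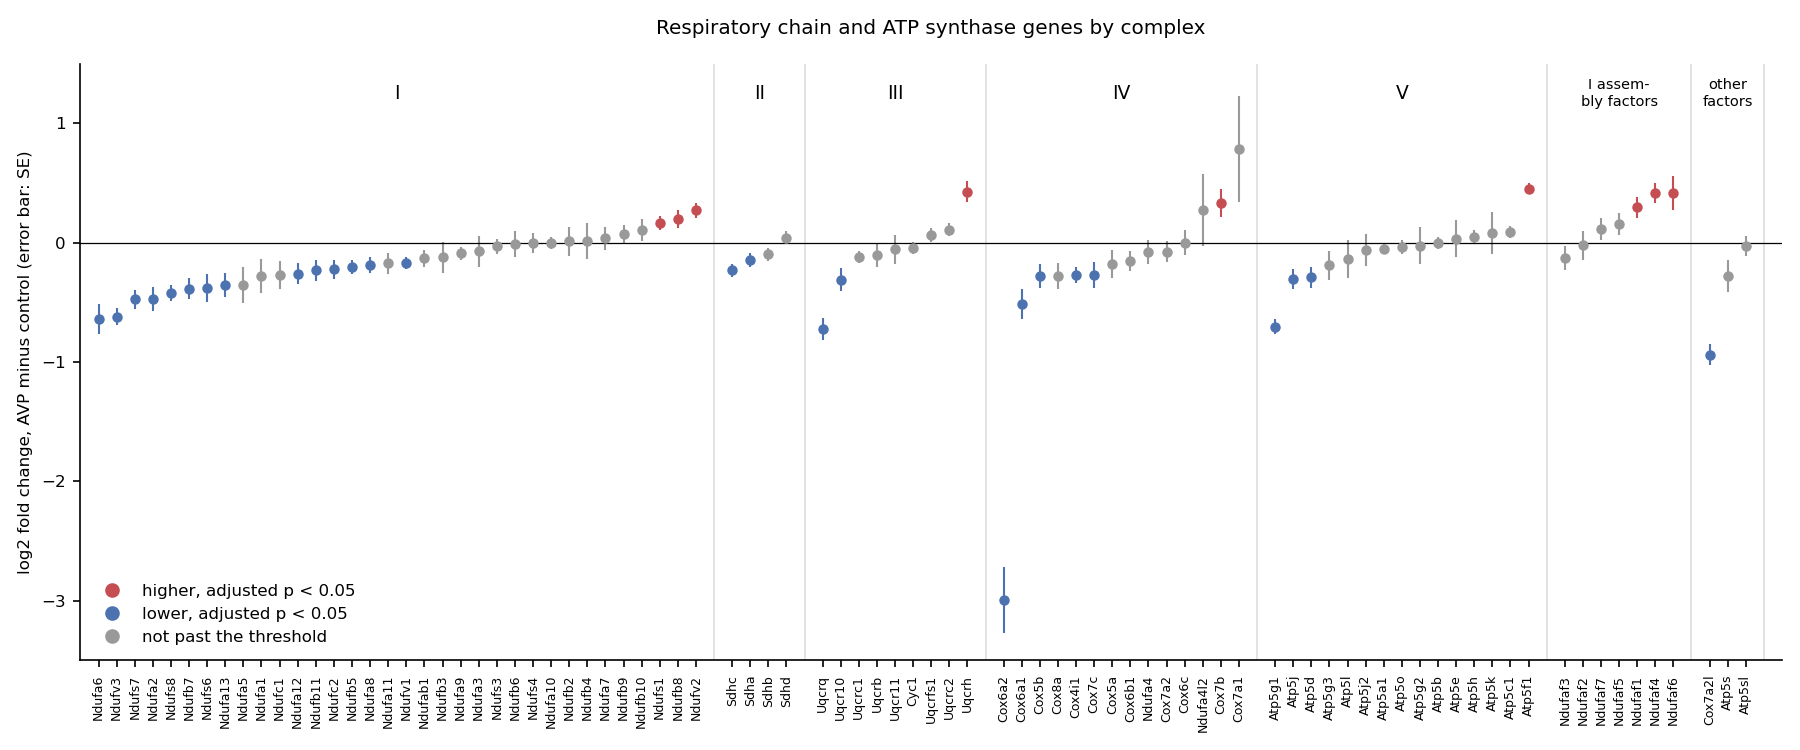
Log2 fold change, AVP minus control, of 86 of the 87 tested genes by complex (1 is not reported here), with bars for 1 standard error and colours for genes past the threshold (n = 3 cultures per group). Most points lie between -0.5 and 0.5, Cox6a2 stands at -2.99, and coloured points below 0 (27) outnumber those above it (9).

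By annotated exon length the counts were as follows, with no test of a difference between lengths. This length merges the exons of all annotated transcripts of a gene, so it can exceed that of any single transcript. Among genes tested with under 1000 nt of exon, 39 belonged here. Of these 1 rose (2.56%) and 13 fell (33.3%), with a median log2 fold change of -0.14. All 723 tested genes of that length had 142 rises (19.6%) and 188 falls (26.0%), with a median of -0.05. Among the 47 longer respiratory genes, 8 rose (17.0%) and 14 fell (29.8%), with a median of -0.06. Of all 12865 tested genes of that length 29.4% rose and 29.0% fell, with a median of 0.01. When each library's trend with exon length was removed, an adjustment chosen after the data were seen, 17 of 86 genes were higher and 18 lower, with a median of 0.01. Of the 36 calls, 10 were lost with it, among them those of Ndufv1, Sdha, Cox5b and Atp5d (adjusted p = 0.266, 0.106, 0.0646 and 0.0676). Over all genes this adjustment called 28.9% higher and 28.5% lower. The genes that kept their call in the main fit and all 18 alternative settings numbered 12: Atp5f1, Ndufaf4 and Uqcrh were higher, and Atp5g1, Cox6a2, Cox7a2l, Ndufa2, Ndufa6, Ndufs7, Ndufs8, Ndufv3 and Uqcrq were lower. The number of all genes that kept their call in every setting is not given here, so whether 12 is many or few cannot be said. Ndufa2 and Ndufs8 were named after their values were seen.

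**Figure D2:**
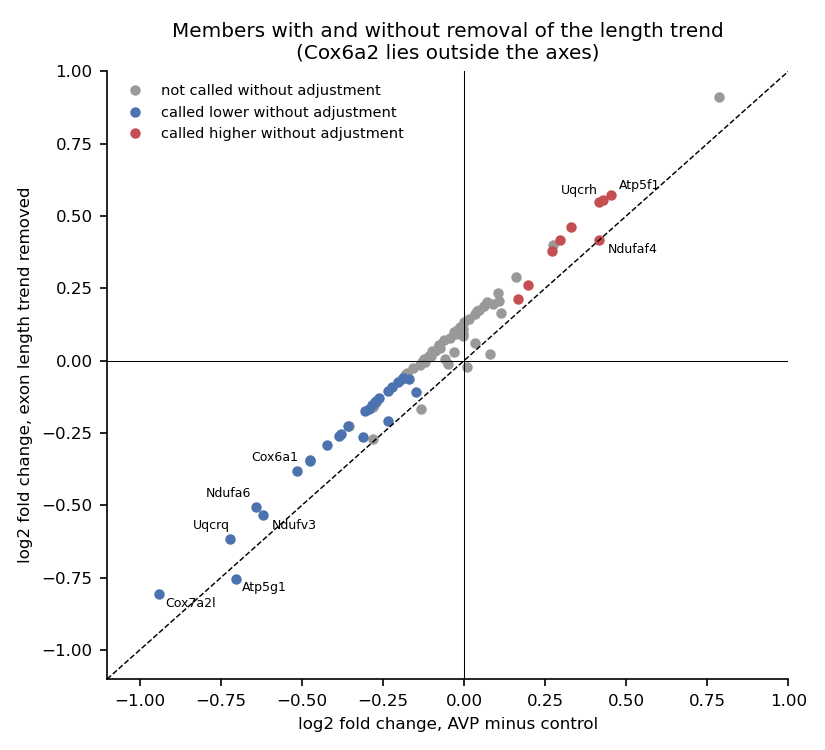
Log2 fold change of each gene without (horizontal) and with (vertical) removal of the exon length trend, with the dashed line marking equal values; Cox6a2, at -2.99 and -2.86, lies outside the axes. Most points sit above the line, and the genes farthest from 0, such as Cox7a2l (-0.94 and -0.81) and Atp5f1 (0.45 and 0.57), keep their direction.

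Complex I subunits were lower with AVP more often than higher. Of 35 tested, 3 rose, 14 fell and 18 did not pass, with a median log2 fold change of -0.17. The shares were 8.57% higher and 40% lower, where 28.7% of all genes tested were higher and 28.8% lower. The 7 core subunits, which carry the FMN, the iron-sulfur clusters and the quinone site, went both ways, with 2 rises and 3 falls. Among the 28 tested supernumerary subunits, which surround that core, 1 rose and 11 fell. With the length trend removed, complex I had 5 genes higher and 8 lower, and without control replicate 2 or AVP replicate 2 it had 8 falls.

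Ndufv3, a supernumerary subunit of the NADH-oxidising end, had 64.7, 64.2 and 55.0 CPM in the controls and 40.3, 38.6 and 40.8 CPM with AVP. Every AVP value was below every control value, and the log2 fold change was -0.62 (SE 0.07, adjusted p = 3.78e-06). Ndufa6, a supernumerary subunit, had 46.7, 53.1 and 36.3 CPM in the controls and 31.4, 25.8 and 30.0 CPM with AVP. The groups did not overlap, with control replicate 3 the nearest to the AVP cultures (log2 fold change -0.64, SE 0.13, adjusted p = 0.00101). Ndufs7, an iron-sulfur subunit near the quinone site, had 95.7, 98.7 and 78.2 CPM against 64.9, 63.2 and 67.9 CPM. It fell in all 3 AVP cultures relative to each control, by 0.48 on the log2 scale (SE 0.08, adjusted p = 0.000122). Ndufs8, the iron-sulfur subunit beside it, fell by 0.42 (SE 0.06, adjusted p = 4.27e-05) and Ndufa2, whose exons overlap Tmco6 on the other strand, by 0.47 (SE 0.10, adjusted p = 0.00104).

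At the NADH site the subunits moved in different directions. Ndufv1, which binds FMN and takes electrons from NADH, had 393, 381 and 365 CPM in the controls and 342, 319 and 351 CPM with AVP. The groups did not overlap and the gene fell by 0.17 on the log2 scale (SE 0.05, adjusted p = 0.0114). Ndufv2, its iron-sulfur partner, had 94.9, 101 and 92.2 CPM against 119, 107 and 122 CPM. All AVP values were above all control values, and the rise was 0.27 on the log2 scale (SE 0.06, adjusted p = 0.00148). Ndufs1, the largest iron-sulfur subunit, whose exons overlap Ino80dos on the other strand, rose by 0.17 (SE 0.06, adjusted p = 0.0197). The supernumerary Ndufb8 rose by 0.20 (SE 0.07, adjusted p = 0.0322). Its exons overlap Gm20538 on the same strand, a gene with no row in the counts. The call of Ndufv1 was lost without AVP replicate 2 (adjusted p = 0.0769), that of Ndufs1 without control 1 (0.0974), AVP 1 (0.0865) or AVP 2 (0.0582), and that of Ndufb8 without control 2 (0.0785), control 3 (0.167) or AVP 3 (0.159). Ndufs5 had no count in any library and has a near-identical pseudogene copy, so no statement on its level can be made.

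The Ndufaf assembly factors, which help build complex I and are not part of the finished enzyme, had rises and no fall. Of 7 tested, 3 rose and 4 did not pass, and the median log2 fold change was 0.16. The share called was 42.9%, all of it higher, where 57.5% of all genes tested were called and 28.7% were higher. Ndufaf4 had 39.6, 42.5 and 51.3 CPM in the controls and 57.8, 58.9 and 61.2 CPM with AVP. Control replicate 3 was the highest control and still below every AVP culture (log2 fold change 0.42, SE 0.09, adjusted p = 0.000661). Ndufaf6 had 5.75, 5.74 and 4.76 CPM against 7.40, 6.98 and 7.33 CPM, and rose by 0.42 (SE 0.14, adjusted p = 0.0189) with no overlap. Ndufaf1 had 21.6, 23.0 and 24.1 CPM against 30.3, 26.5 and 27.5 CPM, and rose by 0.30 (SE 0.09, adjusted p = 0.00869), again with no overlap. Without AVP replicate 1 the calls of Ndufaf6 and Ndufaf1 were lost (adjusted p = 0.0545 and 0.0516), and without control replicate 3 that of Ndufaf6 (0.0775). Ndufaf2, Ndufaf3, Ndufaf5 and Ndufaf7 had log2 fold changes between -0.13 and 0.16.

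Complex II, succinate dehydrogenase, is the one complex here with all its subunits encoded in the nucleus. Of its 4 genes 2 fell and none rose, with changes below 1.2-fold. The share called was 50%, where 57.5% of all genes tested were called and 28.8% were lower. Sdhc, a membrane anchor, had 192, 182 and 178 CPM in the controls and 162, 153 and 154 CPM with AVP. The groups were apart, and the log2 fold change was -0.23 (SE 0.05, adjusted p = 0.00139). Sdha, the flavoprotein that oxidises succinate, had 358, 366 and 341 CPM against 347, 314 and 300 CPM. AVP replicate 1 lay above control replicate 3, and the fall was 0.15 on the log2 scale (SE 0.06, adjusted p = 0.0379). That call was lost without control 1 (adjusted p = 0.0673), control 2 (0.138), AVP 2 (0.117) or AVP 3 (0.164). Sdhb, the iron-sulfur subunit, had a log2 fold change of -0.10 (adjusted p = 0.143, and 0.0413 without control replicate 3) and Sdhd, the other anchor, of 0.04 (adjusted p = 0.534).

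In complex III, 1 of 9 genes rose, 2 fell and 6 did not pass. The shares were 11.1% higher and 22.2% lower, both below those of all genes tested (28.7% and 28.8%). Neither electron-carrying subunit encoded in the nucleus passed: Cyc1, cytochrome c1, had a log2 fold change of -0.04 (SE 0.05, adjusted p = 0.503) and Uqcrfs1, the Rieske iron-sulfur protein, of 0.06 (SE 0.06, adjusted p = 0.397). With the exon length trend removed, Uqcrfs1 did pass, at 0.19 (adjusted p = 0.00772). Uqcrc1, a large core subunit without a redox centre, had -0.12 (SE 0.05, adjusted p = 0.0564), and passed without control replicate 3 (adjusted p = 0.0234) or AVP replicate 1 (0.0446). The genes that passed encode small subunits. Uqcrq had 186, 204 and 160 CPM in the controls and 110.3, 101 and 123 CPM with AVP. Each AVP value was below each control value (log2 fold change -0.72, SE 0.09, adjusted p = 4.53e-05). Uqcrh, the hinge protein near cytochrome c1, went the other way, with 73.4, 73.8 and 59.0 CPM against 101, 83.9 and 92.3 CPM. Control replicate 3 was the lowest control, the groups did not overlap, and the log2 fold change was 0.43 (SE 0.09, adjusted p = 0.00112). Uqcr10 had 88.2, 87.1 and 67.9 CPM against 71.6, 62.7 and 61.7 CPM, so AVP replicate 1 lay above control replicate 3. It fell by 0.31 (SE 0.10, adjusted p = 0.0139), a call lost without control 2 (0.0572), AVP 2 (0.0606) or AVP 3 (0.0642).

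Complex IV held the largest change among these genes. Of 14 tested genes 1 rose, 5 fell and 8 did not pass, with a median log2 fold change of -0.17. The shares were 7.14% higher and 35.7% lower, where 28.7% of all genes tested were higher and 28.8% lower. Falls numbered 2 without control replicate 1, 3 without control replicate 2 or AVP replicate 2, and 8 without control replicate 3. Cox6a2, on chromosome 7 from 128205435 to 128206387 (minus strand, GRCm38), encodes the subunit 6a isoform known from heart and skeletal muscle. It had 52.4, 47.0 and 41.2 CPM in the controls and 3.54, 5.71 and 8.42 CPM with AVP. The lowest control had 1428 counts and the highest AVP culture 303. The log2 fold change was -2.99 (SE 0.27, adjusted p = 9.09e-05), a level 7.97-fold lower. Its exons overlap those of Itgad, an integrin gene on the other strand, which went from 350 to 16 counts summed over each group's libraries (log2 fold change -4.47, adjusted p = 5.12e-08). The sources used here do not say whether counting used strand, so reads of the pair cannot be told apart.

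Cox6a1, the isoform found in most tissues, had 383, 406 and 289 CPM in the controls and 267, 232 and 256 CPM with AVP. The groups did not overlap, control replicate 3 was nearest to the AVP cultures, and the log2 fold change was -0.51 (SE 0.12, adjusted p = 0.00889). Its call was lost without control replicate 1 (adjusted p = 0.053) and without the low-count filter (0.0501). Per kilobase of exon, Cox6a2 made up 10.3%, 8.86% and 10.7% of the sum of both isoforms in the controls and 1.10%, 2.03% and 2.69% with AVP. The mean shares were 9.95% ± 0.967 and 1.94% ± 0.797 (SD, n = 3), with no overlap and an exact two-sided permutation p of 0.1, the smallest that 3 against 3 allows.

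Other complex IV subunits changed less. Cox4i1, the subunit 4 isoform of most tissues, had 379, 401 and 330 CPM against 312, 287 and 319 CPM, without overlap, and fell by 0.27 on the log2 scale (SE 0.07, adjusted p = 0.00295). Cox5b had 109, 117 and 92.2 CPM against 97.8, 76.0 and 87.6 CPM, with AVP replicate 1 above control replicate 3, and fell by 0.28 (SE 0.10, adjusted p = 0.0341). Cox7b had 40.7, 50.2 and 34.9 CPM against 57.4, 47.6 and 53.2 CPM, with AVP replicate 2 below control replicate 2, and rose by 0.33 (SE 0.12, adjusted p = 0.0328). The call of Cox5b was lost in 4 of the 6 fits that leave out a library: without control replicate 1 (adjusted p = 0.119), control replicate 2 (0.11), AVP replicate 2 (0.102) or AVP replicate 3 (0.0933). That of Cox7b was lost without control replicate 1 (0.109), control replicate 3 (0.0716), AVP replicate 1 (0.11) or AVP replicate 3 (0.0917). Cox5a, Cox6b1, Cox7a2, Cox8a and Ndufa4, a subunit first assigned to complex I, had log2 fold changes from -0.28 to -0.08 and did not pass. Without control replicate 3, Cox5a passed at -0.30 (adjusted p = 0.00478) and Cox6b1 at -0.25 (0.00647), and Cox5a also passed without AVP replicate 3, at -0.29 (0.0367). Cox8a was nearest the threshold at -0.28 (SE 0.11, adjusted p = 0.0578). It passed with DESeq2 (adjusted p = 0.00591), limma-voom (0.0183), robust estimation off (0.0185), the replicate block (0.0226), the length trend removed (0.027), and without control replicate 3 (0.00122) or AVP replicate 1 (0.00867).

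The other isoforms of restricted expression had few counts. Cox4i2, known from lung, had 9 counts in the controls and 29 with AVP, Cox6b2 had 4 and 1, and Cox8b had 1 and 2, summed over 3 libraries, too few to test. Cox7b2 and Cox8c had 0 in all 6 libraries, where the floor of 3 counts is under 0.1 CPM. Cox7a1, the subunit 7a isoform of heart and skeletal muscle, had 30 and 54 counts and did not pass (adjusted p = 0.142). Ndufa4l2, whose exons overlap Shmt2 on the other strand, had 102 and 128 counts and did not pass (adjusted p = 0.455). Cox6a2 was thus the one tissue isoform of complex IV with a level above 2 CPM in any library.

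Cox7a2l, a factor known for joining complexes III and IV into supercomplexes, is a relative of the subunit 7a genes. It had 161, 163 and 130 CPM in the controls and 86.0, 73.5 and 77.3 CPM with AVP. All AVP cultures were below all controls, and the log2 fold change was -0.94 (SE 0.09, adjusted p = 1.14e-06), a level 1.92-fold lower. Cox7a2, the subunit itself, had 131, 139 and 111 CPM against 134, 109 and 118 CPM, with overlapping groups and a log2 fold change of -0.08 (SE 0.09, adjusted p = 0.493). Atp5s and Atp5sl, whose names place them with the ATP synthase, had log2 fold changes of -0.28 (SE 0.13, adjusted p = 0.0832) and -0.03 (SE 0.08, adjusted p = 0.774).

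**Figure D3:**
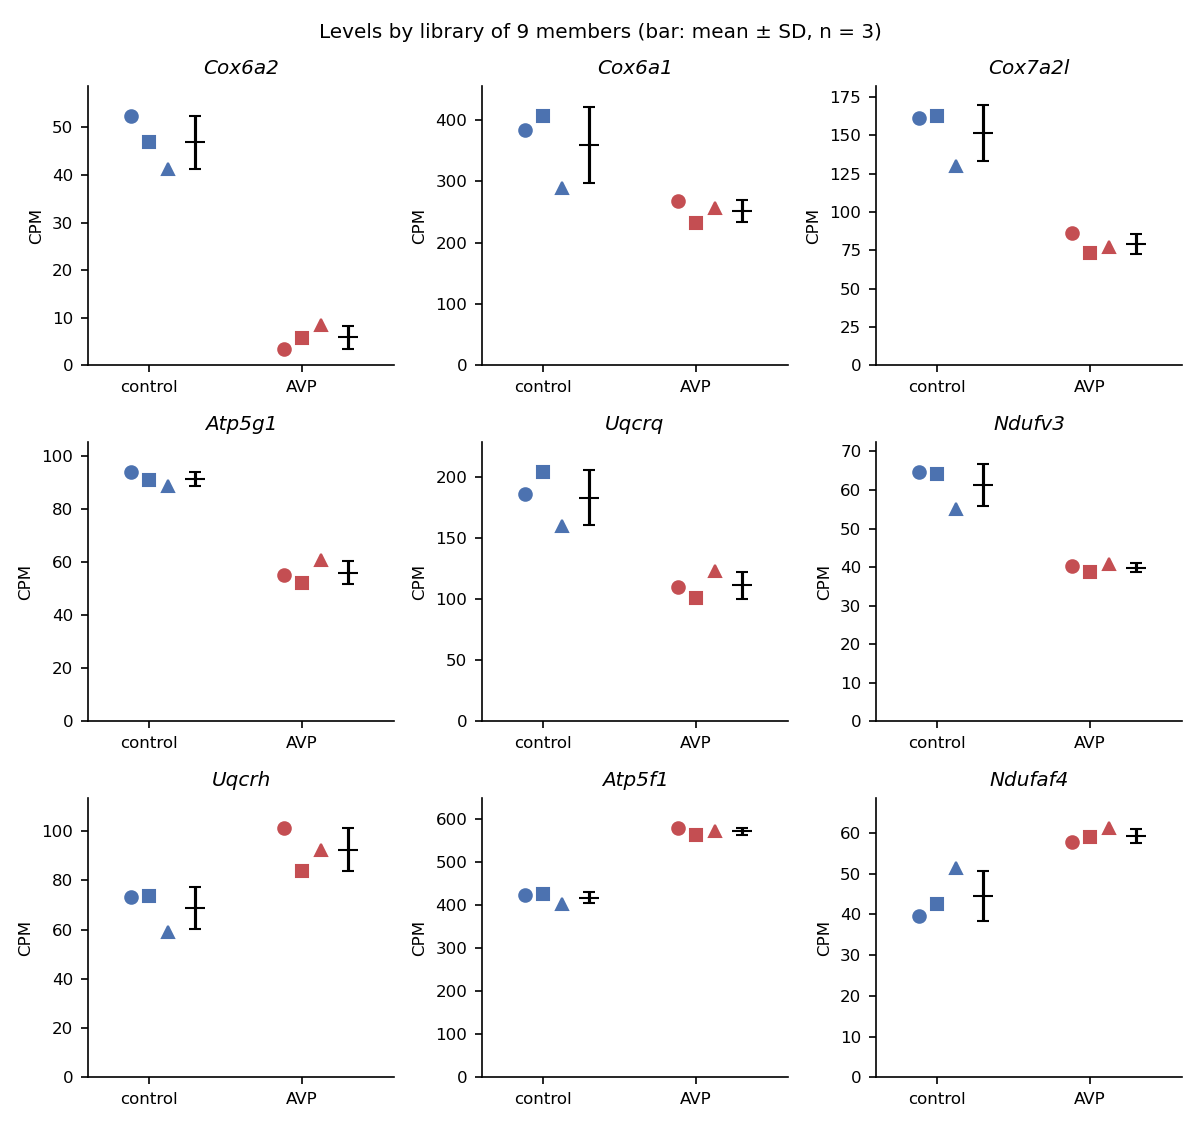
CPM of 9 genes in each library, with symbols for replicates 1 (circle), 2 (square) and 3 (triangle) and bars for mean ± SD (n = 3 per group). In every panel the control and AVP values are apart, 6 genes lower with AVP and 3 higher, and Cox6a2 has the largest fold difference (46.9 ± 5.62 against 5.89 ± 2.45 CPM).

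In complex V, 1 of 15 genes rose, 3 fell and 11 did not pass, with a median log2 fold change of -0.04. The shares were 6.67% higher and 20% lower, both below those of all genes tested (28.7% and 28.8%). The catalytic head differed little. Atp5b, which carries the catalytic sites, had 2285, 2208 and 2151 CPM in the controls and 2309, 2172 and 2153 CPM with AVP. These groups overlapped, with a log2 fold change of -0.00 (SE 0.05, adjusted p = 0.974). Atp5a1, its partner in the head, whose exons overlap Haus1 on the other strand, had 1420.3 ± 28.5 CPM against 1371 ± 25.0 CPM (SD, n = 3), with a log2 fold change of -0.05 (SE 0.05, adjusted p = 0.373). Atp5d, a subunit of the central stalk, had 275, 250 and 211 CPM against 210, 183 and 207 CPM. Control replicate 3 lay just above AVP replicate 1, and the gene fell by 0.29 (SE 0.09, adjusted p = 0.0148), a call lost without AVP replicate 2 (0.0562).

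The c subunit, which forms the rotating ring in the membrane, is encoded by 3 genes with the same mature protein, and 1 of them fell. Atp5g1 had 94.0, 90.8 and 88.8 CPM in the controls and 55.2, 52.2 and 60.7 CPM with AVP. The groups were far apart relative to their spread (log2 fold change -0.70, SE 0.07, adjusted p = 2.59e-07). Atp5g2 had 9.04, 6.98 and 9.78 CPM against 9.96, 7.30 and 8.11 CPM, overlapping, with -0.02 (SE 0.15, adjusted p = 0.905). Atp5g3 had 272, 283 and 232 CPM against 238, 190 and 262 CPM, also overlapping, with -0.19 (SE 0.12, adjusted p = 0.226). Differences between the fold changes of these genes were not tested, and Atp5g2 has near-identical copies elsewhere in the genome.

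In the peripheral stalk, which holds the head still, the changes went both ways. Atp5f1 had 423, 426 and 403 CPM in the controls and 579, 562 and 573 CPM with AVP. All AVP cultures were above all controls, and the log2 fold change was 0.45 (SE 0.05, adjusted p = 8.43e-07). Its exons overlap those of Wdr77 on the other strand, which rose too (log2 fold change 0.54, adjusted p = 5.42e-07), and without strand the reads of the pair cannot be told apart. Atp5j had 94.0, 110 and 89.6 CPM against 84.8, 71.8 and 81.2 CPM, without overlap, and fell by 0.30 (SE 0.08, adjusted p = 0.00482). Its exons overlap those of Gabpa on the other strand, which had a log2 fold change of 0.04 (adjusted p = 0.568).

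The summed CPM of each complex's tested genes differed less than the genes with the largest changes in that complex did. Complex IV had 1953, 2102 and 1622 CPM in the controls and 1694, 1444 and 1600.4 CPM with AVP, so control replicate 3 lay among the AVP cultures. The mean levels were 1893 ± 246 and 1579 ± 127 CPM (SD, n = 3), a log2 ratio of -0.26, which was -0.36 without control replicate 3 and -0.18 without control replicate 2. Complex I had 3191 ± 195 against 2958 ± 155 CPM, complex II 889 ± 28.1 against 823 ± 36.8 CPM and complex III 1202 ± 75.9 against 1117 ± 45.6 CPM, each with overlapping groups. Complex V had 5699 ± 208 and 5691 ± 186 CPM, a log2 ratio of -0.00. The assembly factors of complex I had 139, 150 and 154 CPM in the controls and 174, 164 and 174 CPM with AVP, with every AVP culture above every control. Control replicate 3 was the lowest control in all 5 complexes and the highest in the assembly factors. Contrasts between complexes were not tested, since genes are not replicates of a condition.

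**Figure D4:**
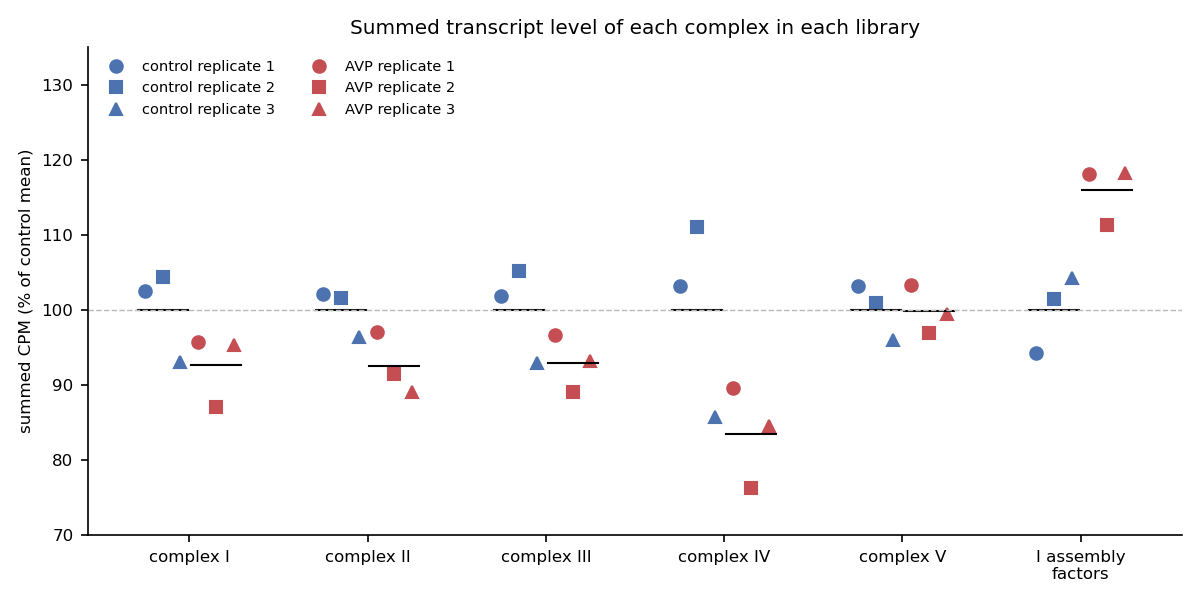
Summed CPM of the tested genes of each complex in each library as a percent of that group's control mean, with symbols for replicates and lines for group means (n = 3); the axis does not start at 0. Control replicate 3 is the lowest control in complexes I to V, the groups overlap there, and the assembly factors are higher in all 3 AVP cultures.

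The promoters of these genes often hold motifs of known regulators of mitochondrial genes. RefSeq promoter windows (build GRCm38.p6, from 250 bases before to 50 after the start) were matched for 76 of the 93 genes, in 82 windows. NRF1, a regulator of many respiratory genes, binds the motif GCGCANGCG, which stood on either strand in 28.0% of these windows and in 6.25% of all 32851 windows. The shares were 20.7% and 8.86% for CCGGAAG, an ETS motif of the kind GABP binds, 10.98% and 1.403% for AAGATGGCG, bound by YY1, and 2.44% and 0.423% for TCAAGGTCA, bound by estrogen-related receptors. The NRF1 motif was in the promoters of 1 of 7 genes that rose, 5 of 22 that fell and 15 of 43 that did not pass, counting tested genes with a window. A match of letters is a description and not a binding site.
The 4 sequences printed here are the 250 bases before the start of genes that moved in different directions, with NRF1 and ETS motifs in capitals. Cox6a1, which fell, has overlapping NRF1 matches on the plus and minus strands starting 162 and 161 bases before the start, another 117 bases before it, and an ETS match at 16 bases. Ndufaf4, which rose, has the same overlapping NRF1 pair at 113 and 112 bases, Uqcrh, which rose, has an ETS match at 10 bases, and Cox7a2l, which fell, has none of the 4 motifs in its window. That Cox7a2l window lies inside the annotated gene (83501918 to 83517330, minus strand). Sequence before the gene's outer end at 83517330 was not searched.
Cox6a1 promoter, chr5:115348959-115349208, minus strand: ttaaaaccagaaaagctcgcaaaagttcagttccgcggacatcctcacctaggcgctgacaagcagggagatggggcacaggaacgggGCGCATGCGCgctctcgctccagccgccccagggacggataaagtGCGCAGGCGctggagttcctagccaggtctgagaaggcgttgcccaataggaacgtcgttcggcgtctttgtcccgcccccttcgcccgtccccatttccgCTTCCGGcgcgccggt
Ndufaf4 promoter, chr4:24897833-24898082, plus strand: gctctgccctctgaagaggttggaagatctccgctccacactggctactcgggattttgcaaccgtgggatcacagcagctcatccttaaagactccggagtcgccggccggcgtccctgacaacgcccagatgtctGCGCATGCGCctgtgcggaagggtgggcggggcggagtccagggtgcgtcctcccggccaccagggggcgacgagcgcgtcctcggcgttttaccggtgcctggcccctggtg
Uqcrh promoter, chr4:116075071-116075320, minus strand: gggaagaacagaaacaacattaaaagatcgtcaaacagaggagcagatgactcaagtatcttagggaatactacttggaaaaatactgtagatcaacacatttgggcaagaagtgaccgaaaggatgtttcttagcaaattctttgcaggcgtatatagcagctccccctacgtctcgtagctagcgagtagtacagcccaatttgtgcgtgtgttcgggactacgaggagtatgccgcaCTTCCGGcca
Cox7a2l promoter, chr17:83514334-83514583, minus strand: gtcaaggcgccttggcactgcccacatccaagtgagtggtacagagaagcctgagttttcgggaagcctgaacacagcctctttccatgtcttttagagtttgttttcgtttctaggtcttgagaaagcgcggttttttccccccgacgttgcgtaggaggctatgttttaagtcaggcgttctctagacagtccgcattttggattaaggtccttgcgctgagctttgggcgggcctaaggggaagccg

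The wider pathway went both ways. Of 41 tested assembly factors whose names lie outside the choice above, 7 rose and 8 fell, with a median log2 fold change of 0.01. The share called was 36.6%, where it was 57.5% of all genes tested. Without AVP replicate 2, 5 fell, and with the length trend removed 11 were higher and 5 lower. Nubpl, which inserts iron-sulfur clusters into complex I, fell by 0.83 on the log2 scale (SE 0.14, adjusted p = 0.000112), and Uqcc3, a complex III assembly factor, by 0.76 (SE 0.10, adjusted p = 6.39e-06). The complex IV assembly factors Cox14 and Cox19 differed in direction, with log2 fold changes of -0.63 (SE 0.08, adjusted p = 8.17e-06) and 0.57 (SE 0.10, adjusted p = 0.000102). Genes of these lists were named after their values were seen.

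Among 16 tested electron carriers and coupling proteins, 3 rose and 5 fell, 50% called against 57.5% of all genes tested. With the length trend removed 7 of them were higher. Vdac3, a channel of the outer membrane, had 241 ± 2.15 CPM in the controls and 173 ± 2.38 CPM with AVP (SD, n = 3), and fell by 0.48 (SE 0.05, adjusted p = 5.43e-07). Atpif1, an inhibitor of the ATP synthase, had 95.5 ± 13.03 and 76.5 ± 8.19 CPM and fell by 0.32 (SE 0.10, adjusted p = 0.021). Gpd2, which passes electrons from glycerol phosphate to ubiquinone, rose by 0.33 (SE 0.06, adjusted p = 0.000419), and Cycs, cytochrome c, had a log2 fold change of 0.16 (SE 0.08, adjusted p = 0.0985).

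Regulators of mitochondrial biogenesis had a median log2 fold change of 0.22, with 6 of 17 higher and 3 lower. These were 35.3% and 17.6%, where 28.7% of all genes tested were higher and 28.8% lower. When any of control 1, AVP 2 and AVP 3 was left out, 1 regulator was lower, as by library size alone and at an adjusted p under 0.01. Pprc1, a coactivator related to PGC-1alpha, had 152 ± 8.77 CPM in the controls and 230.3 ± 10.2 CPM with AVP, and rose by 0.60 (SE 0.06, adjusted p = 2.91e-07). Gabpb1, a subunit of GABP, rose by 0.69 (SE 0.07, adjusted p = 1.34e-06) and Ppargc1a, the gene of PGC-1alpha, by 0.39 (SE 0.14, adjusted p = 0.0279). The Ppargc1a groups overlapped, with AVP replicate 1 (14.1 CPM) below control replicate 1 (14.2 CPM). Nrf1 itself fell by 0.26 (SE 0.09, adjusted p = 0.0279), with AVP replicate 1 (58.2 CPM) above control replicate 2 (57.3 CPM). The regulator still lower at an adjusted p under 0.01 was Polrmt, at -0.20 (SE 0.06, adjusted p = 0.0065), and not Nrf1. Tfam, which packages mitochondrial DNA, had -0.12 (SE 0.06, adjusted p = 0.095). Of 17 genes of pyruvate dehydrogenase and the citric acid cycle 2 rose and 4 fell (35.3% called, against 57.5% of all genes tested). The rises numbered 1 in each fit without 1 library, other than that without AVP replicate 3, and 1 with DESeq2, RLE factors, no filter or the replicate block, and 4 with the length trend removed. The mitochondrial ribosomal proteins had 17 rises and 21 falls among 77, with a median of -0.04, and the cytosolic ribosomal proteins 10 and 24 among 75, with a median of -0.10. The shares called in these lists were 49.4% and 45.3%. The falls of the cytosolic list numbered 13 without AVP replicate 2 and 15 without control replicate 1, and with the length trend removed it had 20 genes higher and a median of 0.02.

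**Figure D5:**
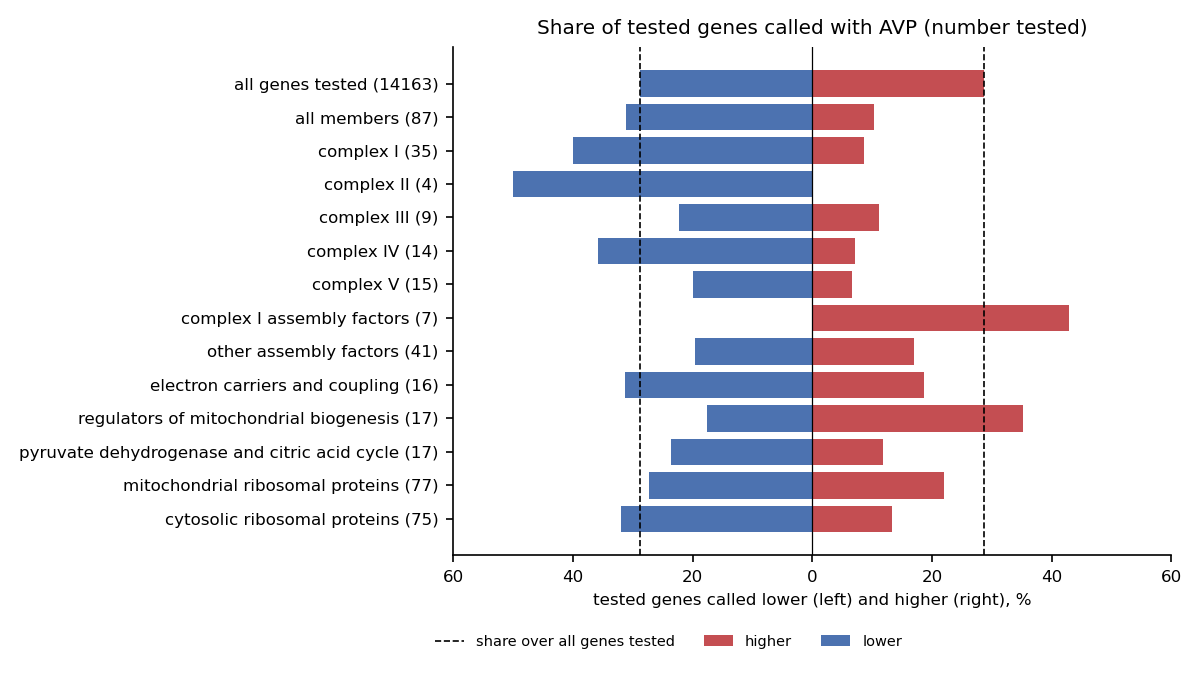
Percent of tested genes called lower (left) and higher (right) with AVP in each group of genes, with the number tested in brackets and dashed lines at the shares over all genes (28.8% lower, 28.7% higher). The respiratory genes as a whole and complexes I to V lie below the dashed line on the higher side, while complex I assembly factors (3 of 7) and regulators of biogenesis (6 of 17) lie above it.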

How the data were processed

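The authors deposited whole-number counts per gene symbol, 1 table for each of 6 libraries of GT1-7 cells (3 control, 3 AVP, grouped by the labels). Per the submitters' processing notes the builds were mm10 and GRCm38. The sources used here do not give the aligner, counter, annotation or strand. The genes, lists and motifs were chosen with earlier results of these data known. All 24391 rows were fitted together, including 27 whose symbols had become dates. AVP was compared with control in edgeR 4.0.16 (R 4.3.3) by the robust quasi-likelihood F test with TMM factors, after filterByExpr with a minimum count of 10, and p-values were adjusted by Benjamini-Hochberg at 0.05. "Rose" and "fell" mean past this threshold. CPM are TMM-scaled, apart from those of markers, which use total counts. The fit was tested on simulated data.

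Named genes were a set of main subunits and isoforms, then up to 3 higher and 3 lower genes with the largest changes in each complex; 1 gene of this set is not reported here. Exon lengths, positions and overlaps came from GENCODE M21 (GRCm38). Copies were transcripts with at least 95% identity over 50% of the length (blastn), found for 12 of the genes, and 25 had exons overlapping another gene. The alternatives changed the scaling (RLE, upper quartile, library size), the filter (none, or 50 counts on average), the tool (DESeq2 1.42.0, limma-voom 3.58.1, no robust estimation) or the threshold (glmTreat at 1.2-fold, adjusted p under 0.01), added the replicate block, or left out each library. Removal of the exon length trend was added after seeing the data.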

Additional observations from a re-analysis of the deposited data

How the results depend on the processing

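Counts of calls moved with the threshold, the exon length trend and single libraries. A test against a fold change of 1.2 (glmTreat) called 2197 genes higher and 2332 lower over all genes, and 3 and 10 of the respiratory genes, with 0 and 5 in complex I, 0 lower in complex II, 1 lower in complex III, 0 higher and 2 lower in complex IV and 1 lower in complex V. At an adjusted p under 0.01, 5 respiratory genes were higher and 16 lower, where 22.3% of all genes were higher and 23.0% lower, with 1 and 8 in complex I, 1 lower in complex II, 1 lower in complex III and 0 higher and 3 lower in complex IV. With the exon length trend removed, 17 were higher, with 5 higher and 8 lower in complex I, 1 and 1 in complex II, 3 higher in complex III and 3 higher in complex V, and the median log2 fold changes of complexes I, II and V were -0.059, -0.038 and 0.043. Scaling by library size alone gave 1 lower in complex II, 2 higher in complex III, 3 lower in complex IV and 2 higher in complex V, and no filter gave 0 higher and 3 lower in complex IV. Library size alone ended 5 calls, among them those of Sdha and Cox5b (adjusted p = 0.107 and 0.0559), and no filter ended those of Cox5b, Cox7b and Cox6a1 (0.0685, 0.0567 and 0.0501). The causes were not tested.

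Signs of small changes that did not pass reversed. With the length trend removed, log2 fold changes were 0.032 for Sdhb, 0.079 for Cyc1, 0.094 for Atp5b, 0.092 for Atp5g2, 0.055 for Cox7a2 and 0.053 for Ndufa4. Atp5b was at 0.0009 with upper-quartile factors and at 0.033 by library size alone, where Atp5g2 was at 0.011. Leaving out 1 library gave -0.035 to 0.019 for Atp5b, -0.16 to 0.072 for Atp5g2 and -0.17 to 0.032 for Ndufa4.

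With 1 library left out, 5 to 8 respiratory genes were higher (5 without AVP replicate 1) and 16 to 36 lower (16 without AVP replicate 2, 17 without control replicate 2 and 36 without control replicate 3). Lower genes numbered 8 to 18 in complex I (8 without control replicate 2 or AVP replicate 2), 1 to 3 in complex II, 1 to 3 in complex III and 2 to 8 in complex IV (2 without control replicate 1, 8 without control replicate 3), where 0 to 1 were higher. No pairing of the cultures by replicate number is stated. Deviations of same-numbered cultures had correlations of 0.0787, -0.0452 and 0.0384, which do not show how the cultures were handled. A replicate block in the fit gave 3972 genes higher and 3969 lower, 9 and 27 of them respiratory genes. At these depths, counts were too few to test isoforms such as Cox4i2 and Cox8b. Some tested genes of low counts, such as Atp5k (SE 0.18) and Ndufaf6 (SE 0.14), had larger SEs than Atp5b (SE 0.05).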
